A study of Homo sapiens with 80 samples.

Results

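The replication-dependent histone genes were followed while human pluripotent stem cells were turned into cardiomyocytes. The set was every gene symbol that begins with HIST1H, HIST2H, HIST3H or HIST4H in both deposited TPM tables (TPM is a read count scaled by gene length and by library), without rows carrying a numbered suffix, and it held 74 of 43388 genes. Of the 74, 6 encode the linker histone H1, 18 encode H2A, 20 H2B, 15 H3 and 15 H4. On GRCh38, 56 lie on chromosome 6, 17 on chromosome 1 and 1 on chromosome 12, and 71 are annotated as protein coding and 3 as pseudogenes. A histone gene name is a rule on symbols, so the set also takes in 4 genes known mainly from testis (HIST1H1T, HIST1H2AA, HIST1H2BA and HIST3H3).

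The study grouped differentiations by the later purity of the cardiomyocytes, high or low, and asked which early signals go with that outcome. The main source here was total RNA, 24 libraries from 3 lines. Each line gave a low purity and a high purity differentiation, and each of these was sequenced once per stage at 4 stages. The lines were WTC11 and IMR90-4, both induced pluripotent lines, and H9, an embryonic stem cell line. The low and high purity cultures were at passage 55 and 58 for H9, at passage 75 and 55 for IMR90-4, and at passage 69 and 81 for WTC11.

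Stage 1 was day 0, before any agent. In WTC11 the WNT activator CHIR99021 went on at day 0, the WNT secretion inhibitor IWP2 at day 2, medium with B27 lacking insulin at day 4, and insulin from day 6, so stages 2, 3 and 4 were days 2, 4 and 6. In H9 and IMR90-4 the same changes came at days 3, 5 and 7. The second source was poly(A) RNA of WTC11 alone, 56 libraries of single wells, with 25 from 1 high purity differentiation begun at passage 52 and 31 from 1 low purity differentiation begun at passage 69, taken every 2 days from day 0 to day 10 and then on day 13 and on day 16. There purity, passage and differentiation cannot be told apart, and p-values measure only the spread between wells. Neither experiment separated cell types, and in bulk RNA fewer cells of a type and less RNA per cell cannot be told apart. Libraries held 17990882 to 40357968 reads in genes for total RNA and 6579715 to 18143597 for poly(A) RNA.

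Replication-dependent histone genes supply the histones that package newly made DNA, and cells express them mainly in S phase. Their mRNAs are known for ending in a conserved stem-loop in place of a poly(A) tail. SLBP binds that stem-loop, the U7 small nuclear ribonucleoprotein with LSM10 and LSM11 directs the cut behind it, and NPAT activates transcription of the genes. Some of them also give a longer, polyadenylated transcript, which is the form a poly(A) kit is built to capture. Replication-independent variants such as H2AFZ and H3F3B have ordinary polyadenylated mRNAs.

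The stem-loop shows what sets these transcripts apart. In GENCODE v29, 36 members had a transcript model with at least 40 bases after the stop codon, and 32 of these held a 16-base stem-loop. There were 6 distinct sequences, of which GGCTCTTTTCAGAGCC occurred in 17 members, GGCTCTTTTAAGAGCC and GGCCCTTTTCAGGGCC in 5 each and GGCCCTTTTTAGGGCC in 3. The examples below were chosen from 4 histone classes and from both ends of the poly(A) results, with the stem-loop in capitals and up to 5 flanking bases on each side.
HIST3H2A: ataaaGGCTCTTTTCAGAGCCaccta
HIST1H2AE: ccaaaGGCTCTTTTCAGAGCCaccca
HIST1H2AC: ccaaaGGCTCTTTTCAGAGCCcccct
HIST2H2BE: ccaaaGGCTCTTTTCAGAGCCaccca
HIST1H3G: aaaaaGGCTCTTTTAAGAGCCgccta
HIST1H3E: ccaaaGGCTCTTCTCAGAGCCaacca
HIST1H4E: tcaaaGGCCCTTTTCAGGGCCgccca
HIST1H4I: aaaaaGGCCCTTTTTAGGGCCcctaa

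The H4 members shown pair GGCCC with GGGCC, where the H2A, H2B and H3 members pair GGCTC with GAGCC. Of the 32 members with a stem-loop, 23 had a model that runs at least 100 bases past it, and 16 of those 23 carried AATAAA or ATTAAA, the hexamers that mark polyadenylation, in the last 40 bases.

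Upstream sequence came from RefSeq on GRCh38.p14, where 66 of the 74 members matched a window of 250 bases before to 50 after the start site. The motifs were searched on both strands and are descriptions of letters only. CCAAT was present in 84.8% of the 66 members' windows against 35.7% of all 27305 windows, and in every H1, H2A, H2B and H3 window but only 3 of 13 of H4. TATAAA was present in 66.7% against 11.95%, and ATTTGCAT, the octamer, in 39.4% against 1.8%, with 11 of 16 H2A and 14 of 18 H2B windows. AAACACA was found in 6 of 6 H1 windows against 5.76% of all, and GGTCC in 12 of 13 H4 windows against 46.08% of all. 

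HIST3H2A and HIST3H2BB stand head to head on chromosome 1 with start sites 230 bases apart, and both were among the members with the largest early change, so the stretch between them is shown, at chr1:228457874-228458102 on the + strand. Capitals mark CCAAT or its reverse complement ATTGG, which occur 3 times.
HIST3H2A to HIST3H2BB: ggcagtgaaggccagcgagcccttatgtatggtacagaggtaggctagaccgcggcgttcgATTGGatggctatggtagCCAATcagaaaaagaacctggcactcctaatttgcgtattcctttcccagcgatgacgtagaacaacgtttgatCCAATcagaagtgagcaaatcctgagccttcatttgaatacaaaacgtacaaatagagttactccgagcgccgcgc

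HIST1H1A, an H1 gene, changed most in the early poly(A) comparisons. The 250 bases before its start, chr6:26017788-26018037 on the − strand, are given with every match to the motifs above, on either strand, in capitals.
HIST1H1A: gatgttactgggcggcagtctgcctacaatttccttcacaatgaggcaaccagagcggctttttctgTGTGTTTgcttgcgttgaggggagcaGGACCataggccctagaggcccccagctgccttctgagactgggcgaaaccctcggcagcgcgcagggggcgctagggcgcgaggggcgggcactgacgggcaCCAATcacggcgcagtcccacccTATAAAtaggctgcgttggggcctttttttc

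Histone genes held a large share of TPM in total RNA. Since TPM is scaled by gene length, this is not a share of reads or of RNA mass. At stage 1 the 74 members summed to 112648 ± 10282 TPM (SD, n = 6), or 11.3% of all TPM. Of the members, 55 had a mean of at least 50 TPM over the 24 libraries and 32 of at least 1000, while 5 were below 1 and HIST1H2APS1, a pseudogene, had no read in any total RNA library. The H4 genes led per length, with HIST1H4D at 5507 TPM, HIST1H4I at 4782 and HIST1H4E at 3801 on average. Among the linker histones HIST1H1B (2504 TPM), HIST1H1C (2427) and HIST1H1E (1182) were highest, with HIST1H3B (3141), HIST1H3G (1987) and HIST1H3H (1911) leading H3. The leading H2A genes were HIST1H2AG (2095 TPM), HIST1H2AH (1809) and HIST1H2AI (1801), and the leading H2B genes HIST1H2BC (2122), HIST1H2BG (1947) and HIST1H2BH (1684).

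Near-identical copies limit what single members can show. In 10 members no 50-base stretch of the coding sequence was unique among the transcripts, and HIST1H2AD (2.0% unique), HIST1H2AM (13.7%), HIST1H2AJ (16.3%), HIST1H2AI (17.7%) and HIST2H3D (19.6%) had few such stretches. How reads with several matches were counted is not given in the sources used here. The values of these members are therefore uncertain.

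The summed TPM was lower at each later stage than at stage 1 in all 6 differentiations. In H9 the low purity differentiation held 117360, 92047, 95931 and 64281 TPM at stages 1 to 4, and the high purity one 93108, 43986, 43087 and 62647. In IMR90-4 the low purity values were 109697, 84402, 78506 and 65217, and the high purity values 115952, 83911, 51341 and 53402. In WTC11 they were 120216, 85951, 86968 and 95701 for low and 119552, 70586, 79986 and 81544 for high.

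In deposited TPM all 6 stage 1 sums lay above all 6 stage 2 sums, from 93108 upward against 92047 downward. Stage 2 stood at 67.6 ± 12.1% of stage 1 (SD, n = 6), from 47.2% in the H9 high purity differentiation to 78.4%. TPM is a length-scaled share of the library, and the small nuclear RNA RN7SK took 8.8% of TPM at stage 1, 21.8% at stage 2 and 28.9% at stage 4. With RN7SK, RNR1, RNR2, RN7SL1 and RN7SL2 left out of the total, stage 2 stood at 78.9% of stage 1 and the 4 stage means were 123391, 97979, 98683 and 99010. On that scale the sums of stages 1 and 2 overlapped, with a lowest stage 1 sum of 106748 and a highest stage 2 sum of 119833, although each differentiation was lower at stage 2 than at its own stage 1. The H9 low purity differentiation then stood above its stage 1 at stage 3, at 131576 against 128082, and 3 of the 6 differentiations went below their own stage 2 at stage 3 or 4. With TMM factors, which scale libraries on genes of middling change, the sums of stages 1 and 2 overlapped too (87890 and 95069), and H9 low purity again stood higher at stage 3 than at stage 1 (107275 against 101639).

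**Figure D1:**
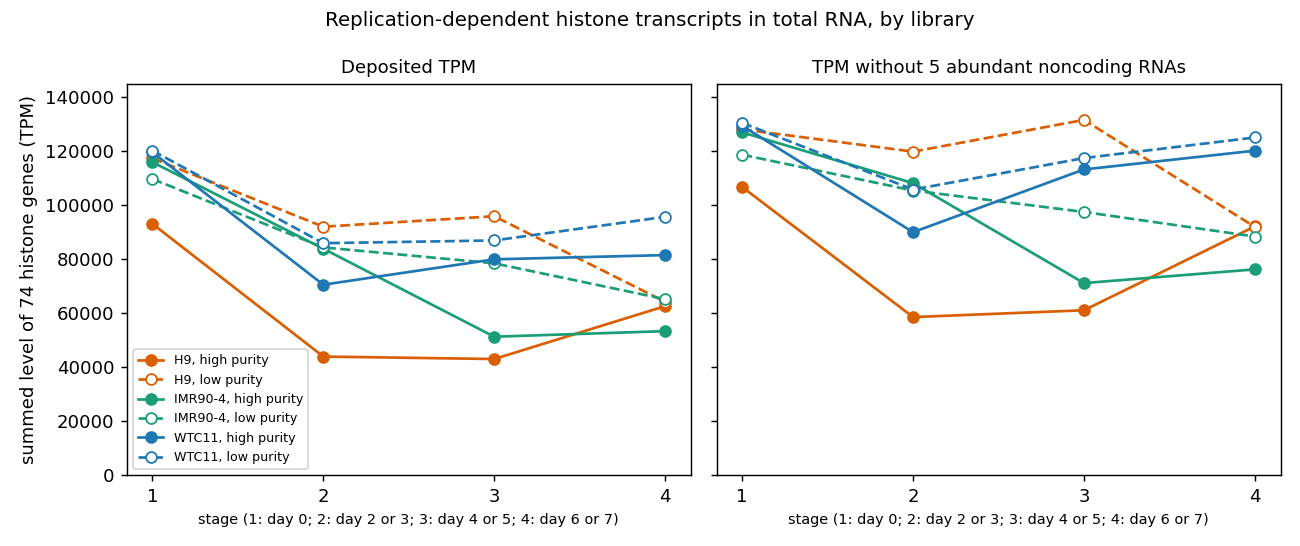
Summed TPM of the 74 histone genes (vertical axis) at the 4 stages (horizontal axis) in total RNA, 1 point per library, with lines joining the libraries of a differentiation, in deposited TPM (left) and with 5 noncoding RNAs left out of the total (right). Every differentiation drops from stage 1 to stage 2 on both scales, and the H9 high purity differentiation is lowest at stages 2 and 3, with 43986 and 43087 deposited TPM.

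Between stages 1 and 2, 14 of the 71 members tested fell and 1 rose in total RNA. Calls were made with edgeR's quasi-likelihood test, the differentiation as a block, and needed both an adjusted p (Benjamini-Hochberg) below 0.05 and a log2 change of 1 or more in size. Over all 23848 genes tested, 10.8% were called lower and 14.8% higher. The median log2 fold change was −0.53 over the members and 0.03 over all genes, and 63 of 71 members were negative. Lower calls came from every class, with 1 of 6 H1 members, 2 of 16 H2A, 3 of 19 H2B, 5 of 15 H3 and 3 of 15 H4. Among the 32 members with a mean of at least 1000 TPM, 28 log2 fold changes were negative, with a median of −0.38, and the range ran from −1.09 for HIST2H3D to 0.13 for HIST1H1C. HIST2H3D, an H3 gene with few unique stretches, was the 1 called among them, and HIST1H3J (−0.84), HIST1H2BO (−0.83) and HIST1H2BE (−0.81) came next, under the fold threshold. HIST1H4D, the most abundant member, was at 0.01. In 18 of 69 members with a mean of at least 1 TPM all 6 stage 2 libraries lay below all 6 at stage 1, against 19.7% of all such genes, and no member showed the opposite order (5.19% of all genes).

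HIST3H2BB, an H2B gene, showed the pattern in every line. At stage 1 its TPM was 463 and 269 in H9 (low, high), 409 and 428 in IMR90-4 and 564 and 632 in WTC11. At stage 2 it was 123 and 26.2, 86.4 and 73.6, and 209 and 146. Every stage 2 library lay below every stage 1 library, and the log2 fold change was −2.07 (SE 0.25, adjusted p = 3.3e-06, edgeR).

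HIST3H2A, its divergent H2A neighbour, went from 519, 319, 521, 569, 611 and 660 TPM in the same order to 171, 70.5, 164, 146, 238 and 184. The groups did not overlap, and the log2 fold change was −1.63 (SE 0.18). HIST4H4, the lone member on chromosome 12, went from 1181, 901, 994, 1203, 1493 and 1397 TPM to 304, 101, 323, 212, 566 and 450, again without overlap, with a log2 fold change of −1.88 (SE 0.21). In all 3 genes the H9 high purity library was the lowest at both stages.

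HIST1H1A was scarce in total RNA and still fell. It ran at 3.27, 1.06, 13.6, 21.2, 5.04 and 6.53 TPM at stage 1 and at 0.355, 0.749, 0.929, 3.95, 0.353 and 0.730 at stage 2. The ranges overlapped between lines, since IMR90-4 started highest, but each of the 6 differentiations was lower at stage 2. The log2 fold change was −2.74 (SE 0.42, adjusted p = 4.1e-05, edgeR).

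Other called members ranged from scarce to abundant. HIST1H2BA and HIST3H3, both known from testis, had log2 fold changes of −3.48 and −3.29, but HIST1H2BA never passed 2.44 TPM and HIST3H3 never passed 7.30. HIST1H4G, which rose by 2.63 on the log2 scale, held 0 to 24 reads per library. HIST1H3A (−1.75) and HIST1H4A (−1.30) fell from medians of 1192 and 837 TPM to 372 and 327. Leaving out the H9 high purity differentiation left 9 members called, all lower, and a fit without the block called 10.

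The members that fell in total RNA and in both poly(A) differentiations over the first step numbered 6, namely HIST1H1A, HIST1H3A, HIST1H4A, HIST3H2A, HIST3H2BB and HIST4H4. They were 6 of the 70 members tested in all 3 comparisons, where 3.74% of all 21841 such genes were called lower in each. The poly(A) and total RNA libraries are different samples, and 1 of the cultures carries the same line and passage label in both. The H4 member HIST1H4L also fell in total RNA (log2 fold change −1.06) but differed between lines at stage 1, at 397 TPM in H9, 1288 in IMR90-4 and 2167 in WTC11.

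**Figure D2:**
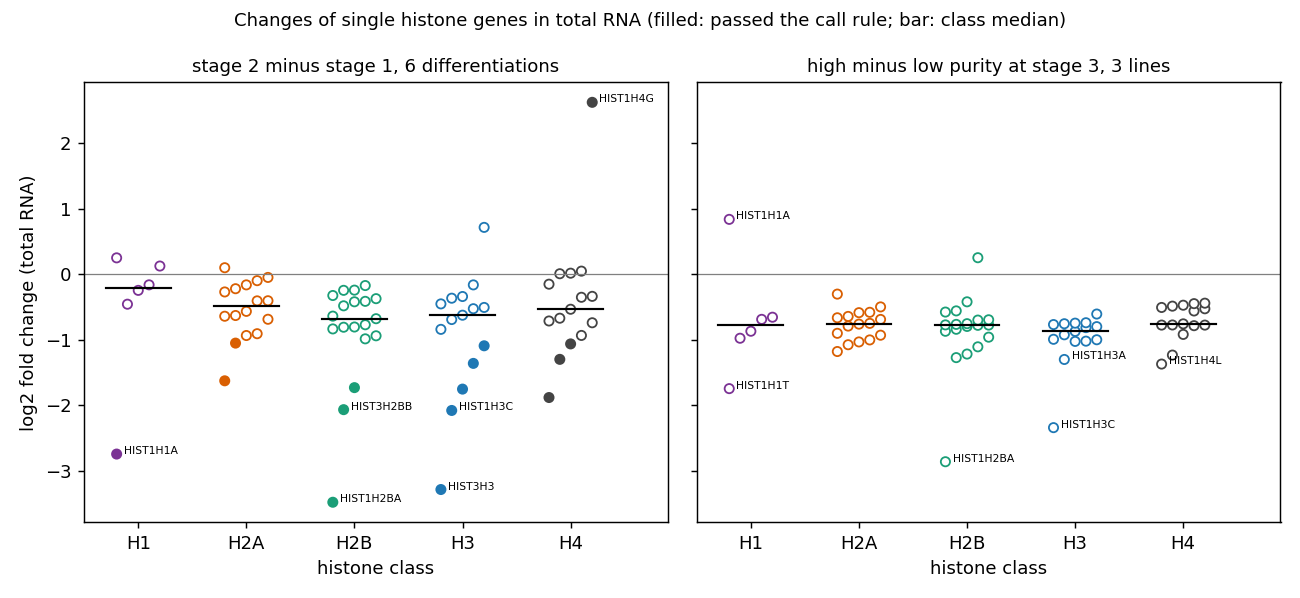
Log2 fold change of each tested histone gene in total RNA (vertical axis), grouped by histone class (horizontal axis), from stage 1 to 2 (left) and for high minus low purity at stage 3 (right), with filled points for genes past the call threshold and bars for class medians. On the left 14 called genes lie below 0, led by HIST1H2BA at −3.48, and HIST1H4G lies above, while the right panel holds no called gene and 69 of 71 lie below 0.

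Later steps in total RNA gave few calls. From stage 2 to 3 only HIST1H1T, a testis H1 gene, was called by edgeR, with a log2 fold change of −1.75, where 3.29% of all genes were called lower. That call was lost without any 1 of the IMR90-4 or WTC11 differentiations, and 3 members were called without the H9 low purity one. From stage 3 to 4 edgeR called 0 members, where it called 3.72% of all genes (3 members had an unadjusted p under 0.05, as did 20.6% of all genes). DESeq2 called 1 member, and its share over all genes is not given here.

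The purity classes were compared within lines in total RNA. No member was called by edgeR at any stage, and neither was any other gene, so the background was 0%. At stages 1, 2, 3 and 4, 2, 31, 59 and 1 of the 71 members had an unadjusted p under 0.05, where 1.48%, 7.95%, 7.54% and 12.1% of all genes did. The median log2 difference, high minus low, was −0.11, −0.52, −0.77 and −0.18, and 60, 68, 69 and 56 members were negative. DESeq2 called 6 members lower at stage 3 and none at the other stages, and edgeR without H9 called 1. The 0% belongs to the main edgeR fit, and the shares of all genes called in these other fits are not given here.

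At stage 3 the lower values in high purity cultures were broad but uneven between lines. The high purity sum was 44.9% of the low purity sum in H9, 65.4% in IMR90-4 and 92.0% in WTC11. The median log2 difference over the 55 members of at least 50 TPM was −1.41, −0.67 and −0.23 in the same order, with 54, 55 and 54 of 55 lower. The 20 S-phase genes summed to 543 TPM in high against 613 in low purity H9, 525 against 644 in IMR90-4 and 701 against 749 in WTC11. RN7SK took 29.5% against 27.1%, 27.9% against 19.5% and 29.1% against 26% of TPM, and the 6 fibroblast markers summed to 48.5 against 673 TPM in H9, 68.4 against 20.3 in IMR90-4 and 50.1 against 28.9 in WTC11. Their part in the histone difference was not tested. In 19 of 67 members all 3 high libraries lay below all 3 low ones at that stage, against 1.62% of all genes, and no member lay wholly above (9.64% of all genes). Members measured in the same libraries are not separate observations. At stage 2 this count was 7 of 68 (1.76% of all genes), at stage 1 it was 3 of 70 (1.17%), and at stage 4 it was 3 of 67 (5.41%). No member lay wholly above at stages 1, 2 or 4, where 1.08%, 4.2% and 5.54% of all genes did.

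HIST1H1D, a linker histone gene, had the smallest unadjusted p at stage 3. Its high purity libraries held 449, 523 and 569 TPM in H9, IMR90-4 and WTC11, and its low purity libraries 853, 947 and 983. The groups did not overlap, and the log2 difference was −0.98 (SE 0.17, adjusted p = 0.48, edgeR), so it missed the threshold. HIST1H4D, the most abundant member, held 3287, 3789 and 5483 TPM in the high and 7098, 5881 and 6401 in the low libraries, again without overlap, at a log2 difference of −0.77 (SE 0.19).

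The lines were compared over all stages and then at stage 1. Over all stages no member separated the 8 libraries of a line from the 16 others (0 of 69 members in either direction). Of all genes, 0.272%, 0.196% and 0.367% lay wholly below in H9, IMR90-4 and WTC11, and 0.228%, 0.152% and 0.43% wholly above. At stage 1, over the 55 members of at least 50 TPM, the highest line mean was a median of 1.193 times the lowest, and 3 members passed 2 times. HIST1H4L had the widest range among them, at 5.46 times, and HIST1H2BF, an H2B gene, ran at 823 TPM in H9, 1646 in IMR90-4 and 1795 in WTC11. A further 10 members, all under 50 TPM, also passed 2 times, such as HIST1H1A at 2.17 TPM in H9, 17.4 in IMR90-4 and 5.79 in WTC11.

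In poly(A) RNA the members summed to a far smaller share of TPM, and the late decline could be followed to day 16. On day 0 the 4 high purity wells held 26771 to 30162 TPM and the 4 low purity wells 25504 to 31534. On day 2 the means were 19542 and 21293, on day 4 they were 30034 and 25714, and on day 6 they were 19711 and 17610. On day 16 the high purity wells held 2689, 2836 and 2785 TPM, and the low purity wells 5620, 4699 and 4738.

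Day 16 thus stood at 14.1 ± 1.3% of day 6 in the high purity differentiation and 28.5 ± 4.4% in the low purity one, with no overlap between the classes on day 16. The classes also lay apart on day 4, at 27874 to 32890 TPM in high and 24512 to 27333 in low purity wells. On day 8 high purity wells were the lower, at 8212 to 10948 against 11250 to 13724, as on day 13, at 3686 and 3838 against 4073 to 5595. The sum went down, up and down again over days 0, 2, 4 and 6 in both differentiations. Summed TPM of the 20 S-phase genes followed the same order, at 3382, 1285, 2100 and 1442 for high and 2880, 1613, 2004 and 1223 for low, and their part in the result was not tested.

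**Figure D3:**
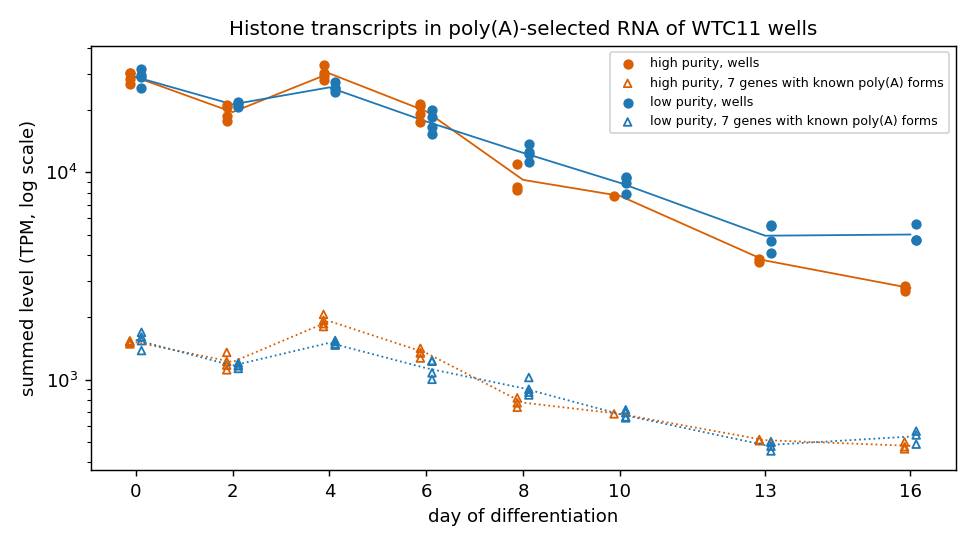
Summed TPM of the 74 histone genes in poly(A) RNA (vertical axis, log scale) by day of differentiation (horizontal axis), 1 point per well, for the high and low purity differentiations, with lines through the means and open triangles for the 7 genes known for a polyadenylated form. The sums of all 74 lie closer together up to day 6 than on day 16, though the day 4 wells of the classes do not overlap. They end at 2689 to 2836 TPM in the high and 4699 to 5620 TPM in the low purity wells on day 16.

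Over the first 2 days, 19 of 71 members fell and 1 rose in the high purity differentiation, and 10 fell in the low purity one. These calls came from limma on log2(TPM + 1) with the same thresholds, where 7.04% of all genes were called lower and 9.66% higher in the first and 6.87% lower in the second. HIST1H1A fell most. In high purity wells it went from 32.2, 28.4, 27.3 and 30.5 TPM to 2.64, 2.39, 2.27 and 0.523, and in low purity wells from 36.3, 44.4, 39.9 and 31.8 to 2.09, 1.58, 0.970 and 4.33. Days 0 and 2 did not overlap, at log2 fold changes of −3.50 and −3.84 (SE 0.41 each). 

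HIST3H2BB (−2.11) and HIST1H3A (−1.69) followed in the high purity differentiation, and HIST1H3C (−2.74) and HIST4H4 (−1.58) in the low purity one. HIST1H1T was the member that rose, by 1.5 on the log2 scale in high purity wells, from 1.06 to 2.61 TPM on day 0 to 3.81 to 11.4 on day 2. The low purity log2 fold change of HIST1H1T was 0.88 and was not called.

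The steps between days 2 and 6 held few calls. From day 2 to 4, high purity wells gave 4 called members where 13.7% of all genes were called: HIST2H2AB (1.43) and HIST2H2BE (1.09) rose, and HIST1H3C (−2.30) and HIST1H1T (−1.95) fell. Low purity wells gave 4 lower members, led by HIST1H4L (−2.00), HIST1H1T (−1.71) and HIST1H2AL (−1.24), where 8.7% of all genes were lower. The sum was nevertheless higher on day 4, and 54 and 51 of the 71 log2 fold changes were positive, most of them under the threshold. Without high purity well 3 of day 4 the high purity count was 7, and without any scaling of TPM it was 11.

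From day 4 to 6, high purity wells gave 5 called members (7.96% of all genes), with HIST1H2AL (−1.46), HIST1H4F (−1.35) and HIST1H2BO (−1.12) lower and HIST1H1T (1.18) higher. Low purity wells gave 2, HIST1H4I (−1.06) and HIST1H2BE (−1.01), where 2.74% of all genes were lower. Leaving out high purity well 3 or 4 of day 4 or well 2 of day 6 brought the first count to 8 or 9, and leaving out low purity well 1 or 2 of day 4 or well 2 of day 6 brought the other to 4.

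Between days 6 and 16 the decline took in most of the set. In the high purity differentiation 51 of 71 members fell, where 8.96% of all genes were called lower, and in the low purity one 50 of 71 fell, where 5.81% were. No member rose in either (9.72% and 7.54% of all genes did), 47 fell in both, and 54 fell in at least 1. The median log2 fold change was −2.07 and −1.47, against 0.00 over all genes. By class, 5 of 6 H1, 12 of 16 H2A, 10 of 19 H2B, 11 of 15 H3 and 13 of 15 H4 members fell in the high purity wells. In the low purity wells 5, 13, 10, 11 and 11 did. Among the 51 tested members with at least 50% unique 50-base stretches, 38 and 37 fell.

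HIST1H1B, a linker histone gene whose coding 50-base stretches are all unique, illustrates the step. High purity wells went from 1891, 2306, 2322 and 2156 TPM on day 6 to 50.9, 54.2 and 49.8 on day 16. Low purity wells went from 1458, 1631, 1873 and 2039 to 294, 208 and 177. Days did not overlap in either class, and the log2 fold changes were −4.91 and −2.74 (SE 0.15 each).

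HIST1H2AJ, an H2A gene with few unique stretches, went from 2186 to 3414 TPM to 53.6 to 55.5 in high purity wells and from 3027 to 4159 to 589 to 755 in low purity wells. Its log2 fold changes were −5.19 and −2.23. HIST1H2AH fell by 4.70 on the log2 scale in high purity wells and by 2.88 in low purity wells. HIST1H4I and HIST1H3G, whose stem-loops are printed above, fell by 3.92 and 3.38 in high and by 1.73 and 1.91 in low purity wells.

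Members known for a polyadenylated form behaved differently from one another. Of 7 such genes, HIST1H2AC (−0.02 high, −0.47 low), HIST1H2BD (−0.41, −0.66), HIST1H2BK (−0.93, −0.36) and HIST2H2BE (−0.39, −0.73) were not called in either differentiation. HIST1H1C (−2.31, −1.5) and HIST1H2BJ (−3.03, −1.25) fell in both, and HIST4H4 (−1.07, −0.06) fell in the high purity one. Each of 4 high purity wells, when left out, ended that call. HIST1H2AC shows the first kind, with 169.5 to 353 deposited TPM on day 6 and 157 to 169.2 on day 16 in high purity wells. In deposited TPM every day 16 well thus lay below every day 6 well, by a narrow margin. The log2 fold change of −0.02 was taken on TMM-scaled TPM, so the 2 scales differ for this gene.

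The decline was steeper in the high purity differentiation. In the test of the difference between the 2 changes, 29 members had a lower and 1 a higher change in the high purity differentiation, where 7.18% and 5.77% of all genes did. HIST1H2AJ (−2.96), HIST1H3I (−2.40) and HIST1H4I (−2.19) led the first kind, and HIST3H2BB (1.93) was the second. The same test called 1 member for the step from day 0 to 2 (3.22% of all genes), HIST1H3C, and 1 for the step from day 2 to 4 (8.94%), HIST1H4L; the first was lost on recovered reads. On day 16 itself, 25 of 71 members were lower in high than in low purity wells and 2 were higher, where 7.65% and 5.76% of all genes were. HIST1H2AJ (−3.33), HIST1H2AI (−2.51) and HIST1H1B (−1.86) had the largest differences among the lower members.

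The 2 members that were higher on day 16 were the divergent pair. HIST3H2A held 134, 181 and 147 TPM in high purity wells and 47.8, 74.4 and 72.5 in low purity wells, with no overlap and a log2 difference of 1.47 (SE 0.18). HIST3H2BB held 3.89, 3.97 and 8.67 TPM against 0.874, 0.498 and 2.06, with a log2 difference of 1.81 (SE 0.36). The low purity wells of HIST3H2BB rest on 1 to 3 reads each and its high purity wells on 7 to 23, so this value is imprecise. Both genes stayed called with unscaled TPM, with no filter, with a pseudocount of 0.1, with well number as a block and with edgeR on recovered reads. HIST3H2A was called on neither day 0 nor day 6, and its step from day 6 to 16 (0.50 high, −0.40 low) was not called.

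**Figure D4:**
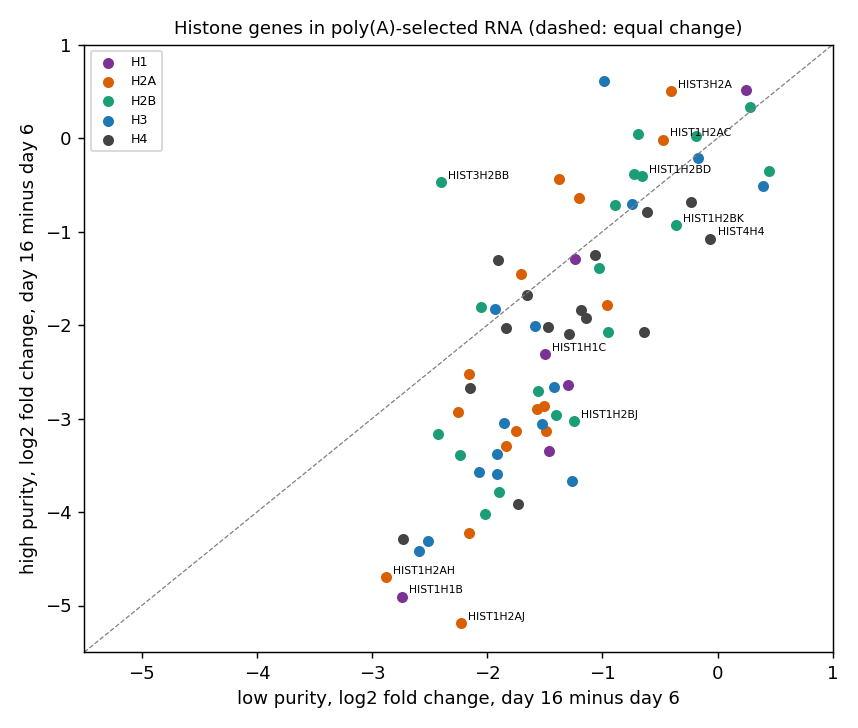
Log2 fold change from day 6 to day 16 of each tested histone gene in poly(A) RNA, low purity differentiation on the horizontal and high purity on the vertical axis, 1 point per gene, with the line of equal change. Most genes lie below the line, led by HIST1H2AJ at −5.19 against −2.23, while HIST3H2A and HIST3H2BB lie above it.

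Markers of other cells differed between the same wells on day 16. The 20 S-phase genes summed to 263 ± 10.0 TPM in high and 390 ± 40.5 in low purity wells (SD, n = 3), and 8 mitosis genes to 147 and 344. The 7 cardiomyocyte markers summed to 10540 to 12660 TPM in high and 3852 to 5692 in low purity wells, the 6 fibroblast markers to 496 to 605 and 9583 to 13053, and the 5 endothelial markers to 40.6 to 48.1 and 158 to 236. Their part in the histone difference was not tested.

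Before day 13 the 2 classes differed in few members. On day 0 limma called none (17 had an unadjusted p under 0.05, as did 25.7% of all genes, edgeR on reads recovered from the TPM called none, and 1.07% of all genes were called). HIST1H4F, an H4 gene, was higher in high purity wells on 3 days. On day 2 it held 636, 581, 650 and 598 TPM against 291, 305, 321 and 295, and on day 4 it held 393 to 438 against 135 to 180. The wells did not overlap, and the log2 differences on days 2, 4 and 6 were 1.09, 1.5 and 1.14. It was the sole call on day 4 (7.84% of all genes). Total RNA of WTC11, where the high purity culture was at passage 81, went the other way. At stages 2 to 4 HIST1H4F held 4222, 2030 and 1611 TPM in high against 6350, 4555 and 3688 in low purity libraries. IMR90-4 was also lower in high purity, at 3829, 1855 and 1641 against 4516, 3703 and 2277. In H9 it was level and then higher, at 1518, 1199 and 1218 against 1515, 1030 and 477.

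Day 2 held 2 further calls (5.32% of all genes), HIST1H3C (1.81) and HIST1H2AL (−1.18), and day 6 held 1, HIST3H3 (−1.64), with 8.8% of all genes called. On day 8 only HIST1H2AL (−1.30) was called (12.2% of all genes), and that call was lost without low purity well 2 (and without high purity well 2 or low purity well 1) and on recovered reads. On day 13, 5 members were called (10.8% of all genes), with HIST2H3C (−1.66), HIST1H2AJ (−1.34) and HIST1H3F (−1.23) lower and HIST3H2BB (1.15) higher. Without high purity well 3 of day 13, which leaves 1 well assumed to vary like the other groups, the count was 8 and HIST3H2BB was not called. Day 10 had 1 high purity library and was not tested.

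The poly(A) and total RNA tables could be set side by side for low purity WTC11 at passage 69 on days 0, 2, 4 and 6. The tables were normalized separately and 1 total RNA library stands on each day, so these are levels and not a test. The members' poly(A) sum was 24 ± 2.1%, 24.8 ± 0.7%, 29.6 ± 1.4% and 18.4 ± 2.1% of their total RNA sum on the 4 days (SD over 4 wells). Over 55 members the median ratio of poly(A) to total TPM was 0.171. It was 0.971 over all 1439 genes of at least 50 TPM in total RNA, the members included. The 7 members known for a polyadenylated form also had a median of 0.171.

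The ratio differed by class. The median was 0.271 for 13 H2A, 0.200 for 16 H2B, 0.188 for 4 H1, 0.098 for 10 H3 and 0.070 for 12 H4 members. HIST2H3D (0.022), HIST1H4I (0.027) and HIST1H3H (0.028) were lowest, where HIST1H4I ran at 5657 TPM in total and 154 in poly(A) RNA. HIST1H2AJ (2.36) and HIST1H2AE (2.03) were the 2 members above 1, with HIST1H1B at 0.785 and HIST3H2A at 0.524. HIST1H2AE and HIST3H2A share the core stem-loop of HIST2H2BE, printed above.

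**Figure D5:**
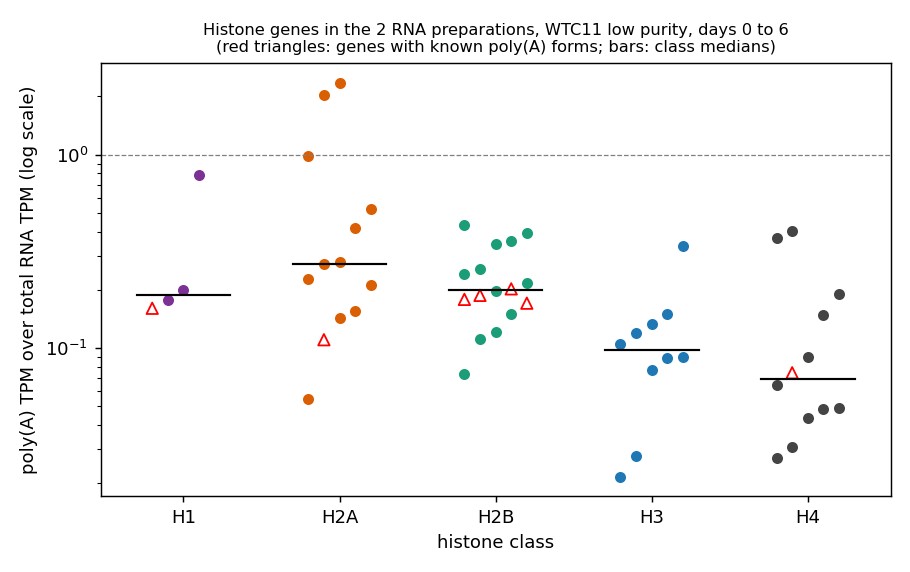
Ratio of poly(A) to total RNA TPM in low purity WTC11 at passage 69 (vertical axis, log scale) for each of 55 histone genes, grouped by histone class (horizontal axis), with bars for class medians and red triangles for genes known for a polyadenylated form. H4 and H3 genes lie lowest, with medians of 0.070 and 0.098, and HIST1H2AJ and HIST1H2AE lie above 1.

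The duplicated HIST2H genes gave unlike values in the 2 tables. HIST2H2AA3, which has no unique 50-base stretch, ran at 4.91 TPM in total and 169 in poly(A) RNA, and HIST2H4B at 7.61 and 68.9. These members were under 50 TPM in total RNA and stand outside the 55.

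Many S-phase genes fell beside the histone genes, and few genes that act on histone mRNA were called. In total RNA from stage 1 to 2, 10 of 20 S-phase genes fell, led by CCNE1 (−1.79), CDC6 (−1.61) and MCM5 (−1.53), with a list median of −1.00. Of 15 genes for histone mRNA transcription and processing 1 was called, LSM11 (1.14), and SLBP (−0.25) and NPAT (−0.17) were not. None of 12 histone chaperones and none of 8 mitosis genes were called in edgeR. These lists were not level, though. In deposited TPM, where RN7SK took a larger share at stage 2, the 15 genes summed to 246 to 337 at stage 1 and 190 to 218 at stage 2. The chaperones summed to 514 to 732 and 360 to 415, and the mitosis genes to 652 to 749 and 404 to 515. Of 11 histone variant genes outside the set, H2AFY2 (2.85) rose and H2AFJ (−1.59) and H2AFZ (−1.23) fell, and H2AFX was at −0.47, not called.

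From day 6 to 16 in poly(A) RNA, 18 of 20 S-phase genes fell in the high and 15 in the low purity differentiation. RRM2 (−3.72), CDC45 (−3.57) and CDC6 (−3.24) led the first, and CDC45 (−2.30), MCM2 (−2.10) and RRM2 (−1.85) the second. The chaperones CHAF1A (−2.35, −1.87) and ASF1B (−1.97, −1.74), which place new histones on DNA, fell in both. Of 11 variants, 6 fell in high purity wells, led by H2AFX (−2.28), CENPA (−2.27) and H3F3B (−1.87), and 3 in low purity wells. SLBP (−0.72, −0.59) stayed under the fold threshold, as did NPAT (−0.41, −0.18), and SRRT (−1.33, −1.35) was the sole processing gene called.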

How the data were processed

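RNA was sequenced in 80 libraries, 24 of total RNA and 56 of poly(A) RNA. The authors deposited, for each experiment, a table of read counts per gene and a table of TPM. Reads were aligned with STAR 2.5.3a and counted with featureCounts 2.0.3 on hg38, per the submitters' processing notes; the annotation, the treatment of reads with several matches and the way TPM was computed are not given in the sources used here. In the total RNA count table, 36 broken lines were left out.

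In the poly(A) experiment, the names of the count and TPM columns disagreed: 0 of 56 count columns matched the TPM column they share a name with, and 50 matched a different one. The nearest column carried the same group name for 54 of 55 TPM columns and 28 of 55 count columns, so TPM was used there. Whole reads were recovered from the deposited TPM for 37194 genes, 73 of them members (100% of values whole within 0.05 in every library), with gene lengths solved from the total RNA tables. An edgeR test of these reads was an alternative.

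Total RNA counts were tested with edgeR 4.0.16 (R 4.3.3, TMM scaling, filterByExpr, quasi-likelihood). That test returns no SE, so each SE given with it is the size of the log2 change divided by the square root of F. Stages were compared with the 6 differentiations as a block, since each was sampled at every stage, and purity within the 3 lines, whose libraries share a replicate number because they share a cell line. Poly(A) TPM was TMM-scaled, logged as log2(TPM + 1) and tested with limma 3.58.1 on genes of at least 1 TPM in at least 3 libraries. Fold changes on that scale understate changes of low genes. Calls needed a p below 0.05 after Benjamini-Hochberg adjustment over all genes tested and a log2 change of 1 or more in size. Untested members were HIST2H2BA, HIST1H2AA and HIST1H2APS1 in total RNA and HIST1H2AA, HIST1H2BA and HIST1H2APS1 in poly(A) RNA. Well numbers did not pair poly(A) samples (0 of 4 pairs on each of days 0 to 6 had a correlation over 0.1; range −0.0128 to 0.0319).

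Alternatives were DESeq2 1.42.0 (its missing adjusted p-values were kept missing), other scalings, no filter, a pseudocount of 0.1, the block added or removed, and each library or differentiation left out. TPM rescaled without 5 abundant noncoding RNAs, the leaving out of libraries from sums and ratios, and the alternatives for the difference between changes were chosen after seeing the data. The tests were checked on simulated data. The members and gene lists were chosen with earlier results of these data known. Named genes were the 3 most abundant members per class, up to 3 called members per direction and comparison with the largest change, the 7 members known for a polyadenylated form, up to 3 genes per pathway list, SLBP, NPAT and H2AFX. HIST1H1D, HIST1H2BF, HIST1H4L across lines, the 6 members that fell at the first step in both sources, HIST1H1A per library in total RNA and the HIST2H copies were described after their values were seen.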

Additional observations from a re-analysis of the deposited data

Results flagged for a closer look

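The change from day 6 to day 16 in poly(A) RNA differed between the high and low purity differentiations for 30 members in a test of the difference itself (limma, adjusted p under 0.05 and a log2 difference of at least 1), 29 of them lower, where 7.18% of all genes were called lower and 5.77% higher. The largest were HIST1H2AJ (−2.96), HIST1H3I (−2.40) and HIST1H4I (−2.19), all steeper in the high purity wells. HIST3H2BB (1.93) was the sole called member with the opposite sign, and its low purity day 16 wells rest on few reads. Called or not, 18 of the 71 members tested had a positive difference.

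From day 0 to day 2 the change differed for 1 member, HIST1H3C, by 2.16 on the log2 scale, out of 71 tested, where 3.22% of all genes were called. It went from 6.32 to 15.1 TPM to 3.56 to 9.46 in high purity wells and from 6.16 to 17.9 to 0 to 3.56 in low purity wells, where the day 2 wells held at most 4 reads. From day 2 to day 4 the change differed for 1 member, HIST1H4L, by 1.64, where 8.94% of all genes were called, with low purity wells going from 764 to 941 TPM to 195 to 286 and high purity wells from 497 to 523 to 372 to 521.

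The check for outlying libraries flagged none in summed member TPM in the 15 groups of 4 to 10 libraries that were tested. In groups this small it can miss a library that differs. At stage 2 the H9 high purity library held 43986 TPM, where the others held 70586 to 92047. Smaller groups, such as the wells of day 16 in either class, were not tested.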

How the results depend on the processing

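No called member changed direction under any alternative. The summed level of the H9 low purity differentiation at stage 3, below stage 1 in deposited TPM, stood above it with 5 noncoding RNAs left out and with TMM scaling. Of 233 results for a called member, 47 lost their call under at least 1 setting. Counts of members called, for comparisons that moved by more than 1.5 times, were as follows. With edgeR on recovered reads in place of limma, 0 members differed in change from day 0 to 2 (1 in limma), 4 fell from day 4 to 6 in low purity wells (2), 2 differed by purity on day 4 (1) and 0 on day 8 (1). With a pseudocount of 0.1 the difference in change from day 0 to 2 held 0 members, low purity day 4 to 6 held 4 and purity on day 4 held 2. Without scaling, high purity day 2 to 4 held 11, low purity day 4 to 6 held 1 and purity on day 8 held 6; without the filter, low purity day 4 to 6 held 1. DESeq2 called 6 members by purity at total RNA stage 3, 2 from stage 2 to 3 and 1 from stage 3 to 4. The shares of all genes called under these alternatives are not given here.

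Leaving out 1 library or differentiation gave 9 to 18 members from stage 1 to 2, 0 to 3 from stage 2 to 3, 0 to 1 from stage 3 to 4 and 0 to 1 by purity at stage 3. In poly(A) RNA it gave 3 to 7 for high purity day 2 to 4, 5 to 9 for high purity day 4 to 6, 2 to 4 for low purity day 4 to 6, 1 to 2 for purity on day 4, 0 to 1 on day 8 and 4 to 8 on day 13, and 0 to 1 and 1 to 2 for the differences in change from day 0 to 2 and 2 to 4.

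Sums depended on scaling. With 5 noncoding RNAs left out of the total, stage 3 stood at 79.3% of stage 1 in place of 63.9%, stage 4 at 80.2% in place of 62.6%, day 16 at 19.1% of day 6 in high purity wells in place of 14.1%, and poly(A) at 29.3% and 27.6% of total RNA on days 0 and 2 in place of 24% and 24.8%. With TMM scaling day 16 stood at 19.3% of day 6 in high and 33.1% in low purity wells, and day 2 at 66.0% of day 0 in low purity wells. Without the 7 members known for a polyadenylated form the high purity value was 12.5%, and leaving out 1 well gave 13.5% to 14.4%. The cause of these differences was not tested.

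The replicate block on well numbers gave 51 and 49 members from day 6 to 16 and 27 by purity on day 16, and no replicate block in total RNA gave 10 from stage 1 to 2 in place of 15. On day 16, unscaled TPM gave 35 members by purity, 33 of them lower. For these fits, and for those with a library or differentiation left out, the shares of all genes called are not given here. Depth limits the scarce members: HIST1H2AA, HIST1H4G, HIST1H2BA and HIST2H2BA held at most 19, 24, 25 and 26 reads in any total RNA library.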

Other observations

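The histone classes held different shares of the members' summed TPM in the 2 kinds of RNA. In total RNA H4 genes held 34.5 ± 1.3% of the sum at stage 1 (SD, n = 6) and 35.4 ± 0.6% at stage 4, and H2A genes 18 ± 0.6% and 19.1 ± 0.4%. In poly(A) RNA on day 0 H2A genes held 41.5 ± 1.6% in high and 46.6 ± 0.6% in low purity wells, and H4 genes 15.1% and 14.0%. The H2A share rests largely on HIST1H2AJ, HIST1H2AE and HIST1H2AM, at means of 6030, 2040 and 1994 TPM in the low purity wells. HIST1H2AJ and HIST1H2AM have few unique stretches (16.3% and 13.7%), so that share is uncertain. By day 16 H1 genes had gone from 15.9 ± 0.5% on day 6 to 5.9 ± 0.2% in high purity wells and from 14.2 ± 0.3% to 9.2 ± 0.5% in low purity wells, and H2B genes from 21.9 ± 1.5% to 34.2 ± 1.3% and from 19.4 ± 0.7% to 26.3 ± 1.1%. The wells of days 6 and 16 did not overlap in either share.

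By cluster, from stage 1 to 2 in total RNA, 8 of 54 tested HIST1H genes fell and 1 rose, 2 of 13 HIST2H genes fell, all 3 HIST3H genes fell (HIST3H2A, HIST3H2BB and HIST3H3), and HIST4H4 fell. Over all genes 10.8% were called lower and 14.8% higher, so the HIST1H and HIST2H shares lie near the background. From day 6 to 16 in poly(A) RNA, 41 of 53 HIST1H genes fell in each differentiation, 9 and 8 of 14 HIST2H genes did, and none and 1 of 3 HIST3H genes did, where 8.96% of all genes were called lower in the high and 5.81% in the low purity differentiation.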
